A study of Mus musculus with 8 samples.

Results

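The transcripts of 9 genes around interleukin-10 (IL-10) and amphiregulin were examined in CCR8+ and CCR8- conventional CD4+ T cells from mouse melanomas. The genes were chosen by symbol for their known roles, with earlier results of these data known. All 9 were among the 11233 genes analysed. They were Il10 and Areg, which encode IL-10 and amphiregulin, the receptor gene Il10ra, the transcription factor genes Maf, Prdm1 and Ahr, the ectoenzyme genes Entpd1 and Nt5e, and the galectin gene Lgals1.

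The EGFP-negative CD4+ Tconv cells were sorted from subcutaneous B16-F10 tumors, which grow from a mouse melanoma line, in Foxp3-EGFP_DTR mice. Here the Foxp3 promoter of the animal drives EGFP together with a human receptor for diphtheria toxin (DTx), and the toxin removes regulatory T (Treg) cells. All mice received DTx, and there were 4 libraries of CCR8+ cells and 4 of CCR8- cells, each numbered 1 to 4. The comparison asks which products linked to suppression differ between Tconv cells with and without the chemokine receptor CCR8 once Treg cells are gone. Both populations share the genotype, the tumor and the toxin, and samples without DTx were not part of the comparison.

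IL-10 is a secreted cytokine that restrains antigen-presenting cells and T cells through a receptor whose ligand-binding chain is IL-10RA and which signals through STAT3. In T cells c-MAF, BLIMP-1 (encoded by Prdm1) and the aryl hydrocarbon receptor are known activators of Il10. Amphiregulin is a growth factor for the EGF receptor made by T cells in injured tissue, CD39 (Entpd1) and CD73 (Nt5e) turn extracellular ATP into adenosine, and galectin-1 (Lgals1) binds cell surface glycans.

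Il10 and Areg were the genes of the 9 with the clearest differences, and both had higher values in CCR8+ cells in all 4 same-numbered pairs. The fitted difference was 14.0-fold for Il10 and 2.63-fold for Areg, whereas the receptor, the 3 transcription factors, the ectoenzymes and galectin-1 each differed by less than the spread between libraries. Neither gene reached an adjusted p under 0.05 in the main test across all genes (limma), while DESeq2 called 1 of them or neither, depending on its settings. Values are normalized counts, that is reads divided by 1 factor per library.

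The sort was checked first. Ccr8 was at 2039, 1293, 6214 and 4637 normalized counts in CCR8- replicates 1 to 4 and at 7975, 6970, 42508 and 22965 in CCR8+ replicates 1 to 4. Every CCR8+ library was above every CCR8- library, with a log2 fold change of 2.37 (SE 0.62, n = 4 per group, exact permutation p = 0.0286). Ccr8 was thus also read in CCR8- libraries. Cd4 was at 8330 ± 721 in CCR8+ and 8431 ± 1494 in CCR8- cells (SD, n = 4 each). Cd3e differed by 0.11 on the log2 scale, and the 8 summed T cell markers lay between 74312 and 117195 in all libraries. Recovered reads came to between 12067780 and 17802628 per library, and 3 reads were worth between 2.205 and 3.421 normalized counts. Unusual zeros, meaning a gene with no read in 1 library and 100 or more normalized counts in each of the others, numbered 242 in CCR8- replicate 1. There were 44 of them in CCR8+ replicate 1, 36 in CCR8+ replicate 3 and none in the other 5 libraries. The 9 genes had reads in all 8 libraries.

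**Figure D1:**
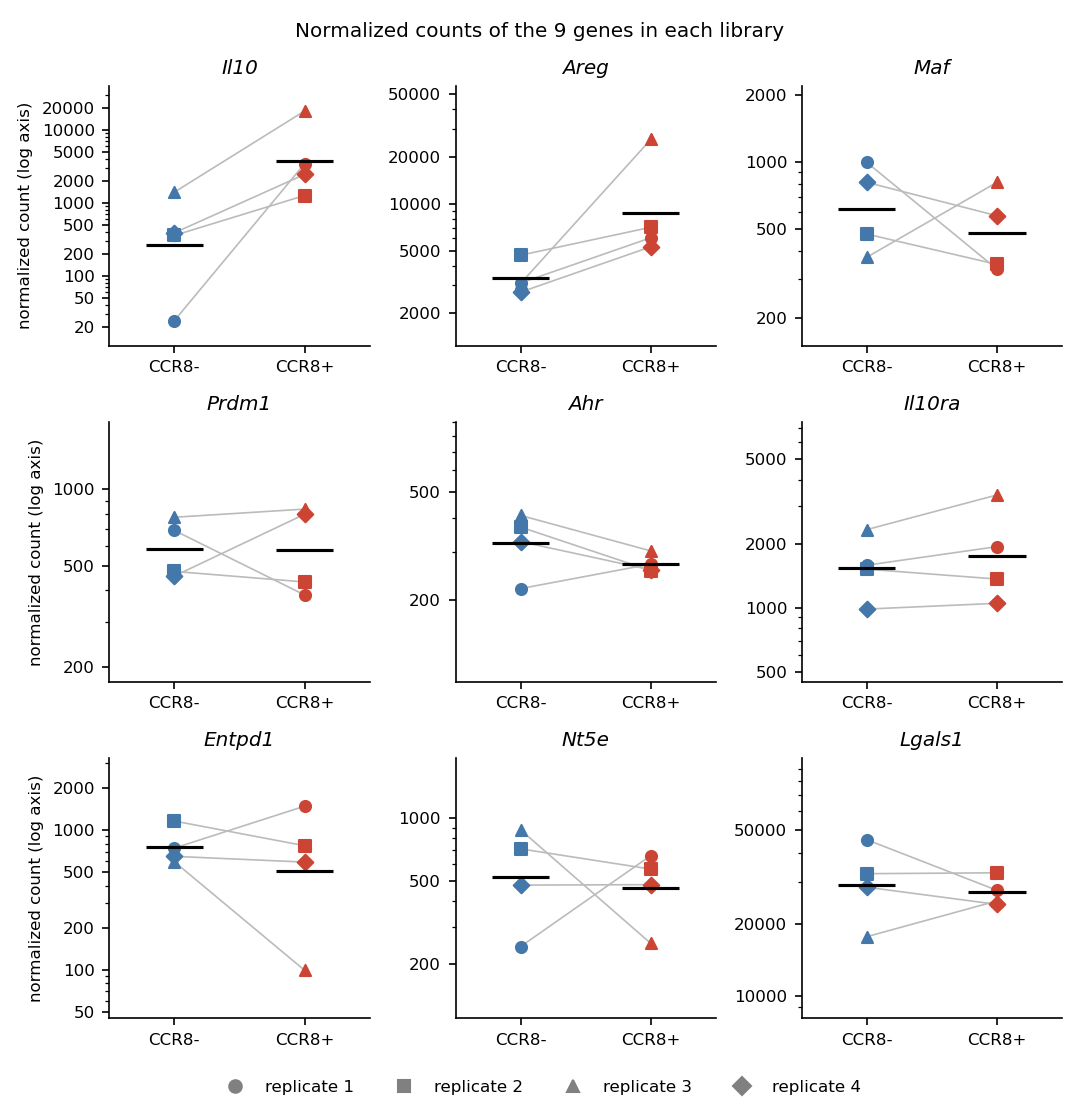
Normalized counts of the 9 genes in each library, on log axes that differ between panels, for CCR8- (blue) and CCR8+ (red) cells; the marker shape is the replicate number, grey lines join libraries of the same number and black bars are means of log2 values, written back to counts. Il10 ran from 24.6 to 18130 and Areg from 2710 to 25704, and in Areg alone did all 4 CCR8+ libraries lie above all 4 CCR8- libraries.

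Il10 (chr1:131019845-131024974, plus strand, GRCm38) was measured at 24.6, 360.2, 1408 and 390.7 normalized counts in CCR8- replicates 1 to 4. In CCR8+ replicates 1 to 4 it was at 3440, 1265, 18130 and 2460. The groups overlapped, because CCR8- replicate 3 lay above CCR8+ replicate 2, while the other CCR8- libraries lay below all CCR8+ libraries. Means were 6324 ± 7921 in CCR8+ and 546 ± 598 in CCR8- cells (SD, n = 4 each), and CCR8+ replicate 3 held 71.7% of the summed normalized counts of its group. On the log2 scale, where a single library weighs less, the difference was 3.80 (SE 1.09, 95% interval 1.40 to 6.21). The exact two-sided permutation test over the 70 assignments of the libraries gave p = 0.0571, where the smallest p it allows is 0.0286. With limma across 11032 genes the unadjusted p was 0.00509 and the adjusted p 0.838.

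The difference in Il10 had the same direction in every pair but not the same size. It was 7.07, 1.81, 3.69 and 2.65 on the log2 scale in pairs 1 to 4. The largest came from CCR8- replicate 1, which held 25 reads of Il10 and had the most unusual zeros. Without that library the log2 fold change was 2.68, and without the 3 libraries with unusual zeros it was 1.60 (limma, adjusted p = 0.881). Leaving out CCR8- replicate 3 raised it to 4.60. The residual SD of Il10 was 2.07 on the log2 scale, above that of 67.2% of tested genes, whose median was 0.83.

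Areg (chr5:91139599-91148432, plus strand, GRCm38) was at 3100, 4670, 3080 and 2710 normalized counts in CCR8- replicates 1 to 4. It was at 6037, 7048, 25704 and 5286 in CCR8+ replicates 1 to 4. The groups did not overlap, and 3 of the CCR8+ libraries lay close together with replicate 3 far above them. Means were 11019 ± 9817 and 3390 ± 872 (SD, n = 4 each), and replicate 3 held 58.3% of the CCR8+ sum. The log2 fold change was 1.39 (SE 0.44, 95% interval 0.43 to 2.36), and the exact permutation p was 0.0286, the smallest this design allows. With limma the adjusted p was 0.838. Pairs 1 to 4 differed by 0.96, 0.59, 3.06 and 0.96 on the log2 scale, and without CCR8+ replicate 3 the log2 fold change was 0.88.

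The 250 bases before the start of Areg are shown because Areg was the gene of the 9 whose groups did not overlap. The sequence is from RefSeq (GRCm38.p6, chr5:91139349-91139598, plus strand, 5′ to 3′). Capitals mark matches to short motifs, in order a c-MAF core (TGCTGA, read on the minus strand), a BLIMP-1 core (GAAAG) and a cyclic AMP response element (TGACGTCA).

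Areg promoter: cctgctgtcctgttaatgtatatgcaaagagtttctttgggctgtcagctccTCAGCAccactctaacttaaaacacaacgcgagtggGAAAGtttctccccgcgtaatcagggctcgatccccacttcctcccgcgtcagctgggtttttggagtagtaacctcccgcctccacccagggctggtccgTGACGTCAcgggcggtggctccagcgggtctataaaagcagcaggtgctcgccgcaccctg

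Both strands were searched in this window, and the 3 matches did not overlap each other. Among 32851 promoter windows of the same length the c-MAF core was found in 16.1%, the BLIMP-1 core in 51.5% and the cyclic AMP response element in 1.55%. The core that AHR binds (GCGTG, found in 28.2%) and the AP-1 motif (TGANTCA, in 6.75%) had no match there. A match describes letters and is not evidence of binding. Of the 9 genes 4 were in the promoter table, and Entpd1, Nt5e and Prdm1 were the others.

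Il10ra (chr9:45253837-45269149, minus strand), the gene of the receptor's ligand-binding chain, was at 1584, 1517, 2330 and 985 normalized counts in CCR8- replicates 1 to 4. It was at 1937, 1363, 3391 and 1048 in CCR8+ replicates 1 to 4. The groups overlapped almost fully, and replicate 3 was highest and replicate 4 lowest in both. The log2 fold change was 0.19 (SE 0.38, 95% interval −0.63 to 1.02, exact permutation p = 0.714).

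Ligand and receptor were therefore also compared within each library, which needs no scaling between libraries. Log2 Il10 minus log2 Il10ra was −5.95, −2.07, −0.73 and −1.33 in CCR8- replicates 1 to 4 and 0.83, −0.11, 2.42 and 1.23 in CCR8+ replicates 1 to 4. Every CCR8+ value was above every CCR8- value, and the difference between groups was 3.61 (exact permutation p = 0.0286). Without the 3 libraries with unusual zeros it was 1.94, where the smallest p allowed is 0.1. Log2 Il10 minus log2 Areg was −1.22 ± 0.87 in CCR8+ and −3.63 ± 2.43 in CCR8- cells (SD, n = 4 each). It was higher in CCR8+ cells by 2.41 and in 4 of 4 pairs, but the groups overlapped (exact permutation p = 0.0571).

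Maf (chr8:115682942-115707794, minus strand) encodes c-MAF, a basic leucine zipper factor. It was at 996.8, 476.3, 375.4 and 812 normalized counts in CCR8- replicates 1 to 4 and at 331.8, 348.5, 812 and 575.4 in CCR8+ replicates 1 to 4. Both groups spanned much the same range, and CCR8+ was higher in 1 of 4 pairs. The log2 fold change was −0.35 (SE 0.43, 95% interval −1.30 to 0.59, exact permutation p = 0.429). Of its 8241 exonic bases 5.3% lie opposite an antisense gene, and whether the counting used strand is not given in the sources used here.

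Prdm1 (chr10:44437177-44528501, minus strand) encodes BLIMP-1, a zinc finger factor of effector T cells and plasma cells. It was at 688.5, 474.8, 776.3 and 455.4 normalized counts in CCR8- and at 383.7, 431.6, 835.9 and 797.4 in CCR8+ replicates 1 to 4. The groups overlapped, 2 pairs were higher and 2 lower in CCR8+ cells, and the log2 fold change was −0.02 (SE 0.37, 95% interval −0.83 to 0.80, exact permutation p = 0.943).

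Ahr (chr12:35497974-35535038, minus strand) encodes a receptor for dietary, microbial and tryptophan-derived ligands. It was at 220.6, 371.2, 409.6 and 328.2 normalized counts in CCR8- and at 271.3, 256.9, 303.4 and 258.5 in CCR8+ replicates 1 to 4. The 4 CCR8+ libraries lay below CCR8- replicates 2, 3 and 4 and above CCR8- replicate 1. The log2 fold change was −0.25 (SE 0.43, 95% interval −1.19 to 0.69, exact permutation p = 0.257), and it was −0.44 without CCR8- replicate 1. Ahr varied little, with a residual SD of 0.29 on the log2 scale, above that of 6.4% of tested genes. Of its exonic bases 2.1% are shared with another gene on the opposite strand.

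**Figure D2:**
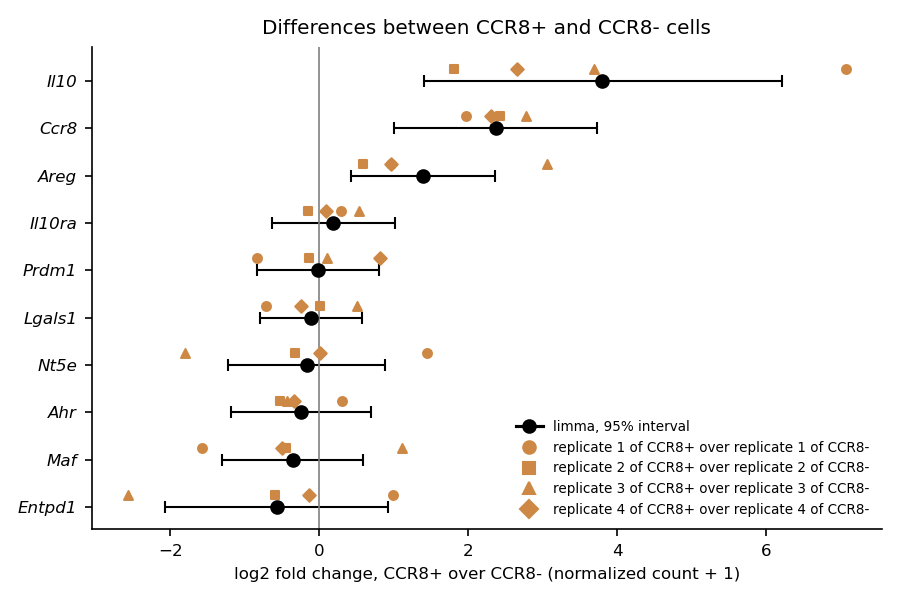
Log2 fold changes of CCR8+ over CCR8- cells (normalized count + 1) for the 9 genes and Ccr8, the gene of the sort marker; black points and bars are the limma estimate with its 95% interval and orange markers the difference within each same-numbered pair. The intervals of Il10 (1.40 to 6.21) and Areg (0.43 to 2.36, with pairs 1 and 4 both at 0.96) lie above 0 and those of the other 7 genes include 0.

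CD39 and CD73 act in sequence, with CD39 removing phosphates from ATP and CD73 making adenosine from AMP. Entpd1 (chr19:40612366-40741602, plus strand) was at 743.7, 1161, 593 and 648.5 normalized counts in CCR8- and at 1483, 773, 99.2 and 590 in CCR8+ replicates 1 to 4. CCR8+ replicate 1 was the highest and CCR8+ replicate 3 the lowest of all 8 libraries, so that the CCR8+ values surrounded the CCR8- values. The log2 fold change was −0.57 (SE 0.68, 95% interval −2.07 to 0.92, exact permutation p = 0.743), and without CCR8+ replicate 3 it was 0.21.

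Nt5e (chr9:88327197-88372092, plus strand) was at 242.3, 711.5, 877.2 and 477 normalized counts in CCR8- and at 660, 569, 251 and 480 in CCR8+ replicates 1 to 4. The groups overlapped, and the log2 fold change was −0.17 (SE 0.48, 95% interval −1.22 to 0.88, exact permutation p = 0.714). Lgals1 (chr15:78926725-78930465, plus strand), whose product galectin-1 can promote T cell death, was at 45328, 32631, 17723 and 28618 in CCR8- and at 27771, 32905, 25052 and 24231 in CCR8+ replicates 1 to 4. Its groups overlapped as well, with a log2 fold change of −0.11 (SE 0.31, 95% interval −0.79 to 0.58, exact permutation p = 0.714).

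Read against all genes, 0 of the 9 passed an adjusted p under 0.05 with limma, as did 0% of the 11032 tested genes, among which the smallest adjusted p was 0.788. An unadjusted p under 0.05 was found for 2 of the 9, Il10 and Areg, against 5.09% of tested genes (562). Every CCR8+ library was above every CCR8- library in 1 of the 9, Areg, against 2.37% of tested genes, and counted in either direction the background was 4.4%. Because the 9 genes were chosen with earlier results of these data known, these shares are a description and not a test of the set. The median log2 fold change was −0.11 over the 9 genes and 0.04 over all tested genes. On the recovered reads, edgeR called 0 genes (487 at an unadjusted p under 0.05) and DESeq2 called 26 of the 2296 genes to which it gave an adjusted p, or 1.13%. Areg was among these (adjusted p = 0.0307), Il10 was not (adjusted p = 0.117), and 5 of the 9 genes had no adjusted p because of its filter on low means. Without that filter neither Areg (0.0687) nor Il10 (0.275) had an adjusted DESeq2 p under 0.05. With the replicate number as a block DESeq2 called Il10 (adjusted p = 3.71e-05) and not Areg (0.064), though whether the numbers pair the libraries is not known. From these same data, at its own thresholds of adjusted p and fold change, the paper names Il10 and Areg among transcripts enriched in CCR8+ cells. By qRT-PCR it also found more Il10 mRNA in CCR8+ than in CCR8- cells after DTx.

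The order of the transcript levels was set per kilobase of exon. Lgals1 came first in both populations (30442 normalized counts per kilobase in CCR8+ and 34413 in CCR8- cells) and Areg the second (9069 and 2790). Il10 ranked 3 in CCR8+ cells (4827) and 4 in CCR8- cells (417), changing places with Il10ra (553 and 459). Below them came Entpd1 (132 and 141), Prdm1 (110 and 107), Maf (62.7 and 80.7), Nt5e (57.0 and 67.1) and Ahr (44.2 and 53.9). In CCR8+ libraries the ranges of neighbours in this order overlapped except for Lgals1 over Areg and Il10ra over Entpd1. In CCR8- libraries Lgals1 lay over Areg and Areg over Il10ra without overlap, while all lower neighbours overlapped.

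How Il10 moved with the 3 factors was asked across the 8 libraries, on log2 values. Pearson's r was −0.36 with Maf (exact permutation p = 0.399), 0.16 with Prdm1 (p = 0.722) and 0.24 with Ahr (p = 0.581), and Spearman's rho was −0.40, 0.26 and 0.12 (exact permutation p = 0.327, 0.536 and 0.793). None was past 0.05, and adjusted over the 8 relations of Il10 with the other genes the values for r were 0.639, 0.75 and 0.75. Without the 2 libraries farthest from the median of each factor r was 0.29, 0.06 and −0.47, so that Maf and Ahr changed sign. The relation with Maf also depended on single libraries. Without CCR8+ replicate 3 it was −0.79 (exact permutation p = 0.0194 before adjustment) and without CCR8- replicate 1 it was 0.14.

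The same was asked within the populations, after the values had been seen. With 4 libraries in each, the separate values are a description. For Maf r was 0.78 within CCR8+ and −0.84 within CCR8- libraries, and for Prdm1 it was 0.58 and −0.05. For Ahr it was 0.98 and 0.97, and the CCR8+ libraries had the same order for both genes, as did the CCR8- libraries apart from replicates 2 and 4. Within CCR8+ libraries Ahr spanned only 256.9 to 303.4 normalized counts, on 251 to 306 reads. CCR8+ replicates 2 and 4 were at 256.9 and 258.5, a gap smaller than counting error, so the order there is uncertain. Between the populations Ahr was lower in CCR8+ cells in 3 of 4 pairs, against the direction of Il10. Over deviations of all 8 libraries from their group means r was −0.21 for Maf, 0.25 for Prdm1 and 0.93 for Ahr. An exact two-sided permutation within each population (576 arrangements) gave p = 0.661, 0.531 and 0.00521, or 0.661, 0.607 and 0.0417 adjusted over the 8 relations. High values within CCR8- libraries were not particular to Ahr, with Nt5e at 0.95 and Lgals1 at −0.93. Within CCR8+ libraries these 2 genes were at −0.85 and −0.62. Over deviations Nt5e was at 0.34 and Lgals1 at −0.85 (exact permutation p = 0.462 and 0.033, adjusted 0.607 and 0.132). For Ahr r was 0.80 without the 2 libraries with the largest deviations of Ahr, and between 0.85 and 0.96 with any 1 library left out. The separation between the populations is taken out of this measure, while r over the 8 libraries as a whole was 0.24.

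**Figure D3:**
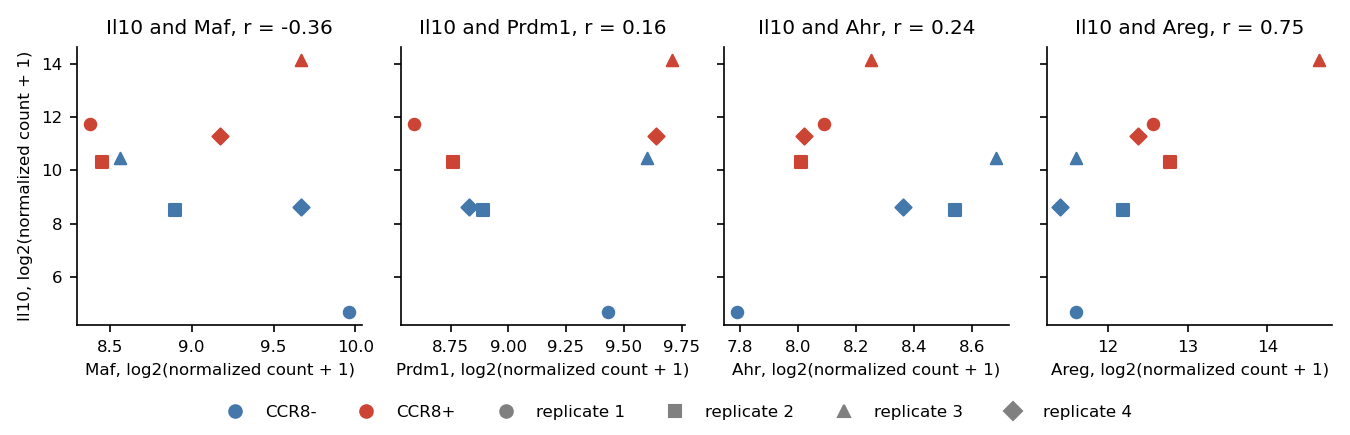
Il10 against Maf, Prdm1, Ahr and Areg in the 8 libraries, both axes as log2(normalized count + 1), with CCR8- in blue, CCR8+ in red and the replicate number as marker shape. Pearson's r was −0.36, 0.16, 0.24 and 0.75. In the Ahr panel the points of each population rise together. No CCR8- library has an Ahr value within the CCR8+ range, which lies between CCR8- replicate 1 and the other CCR8- libraries.

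Among the other genes, Areg went with Il10 at r = 0.75 (exact permutation p = 0.0457, adjusted 0.265, rho 0.62 with p = 0.115), and r was 0.60 without the libraries with the most extreme Areg. This r includes the difference between the populations, in which both genes were higher in CCR8+ cells. Within CCR8+ libraries it was 0.88 and within CCR8- libraries 0.05. Over deviations from the group means it was 0.48 (exact permutation p = 0.222), and −0.03 without CCR8+ replicate 3. Lgals1 ran the other way at r = −0.68 (exact permutation p = 0.0664, adjusted 0.265, rho −0.71 with p = 0.0576). For Il10ra r was 0.48, for Nt5e 0.14 and for Entpd1 −0.51, with exact permutation p-values of 0.225, 0.75 and 0.199. As a description, Il10 and Ccr8 correlated at 0.84 over the 8 libraries and at 0.64 over deviations from the group means, and Areg and Ccr8 at 0.70 and 0.35. Of the other 7 genes, Entpd1 (−0.70 and −0.80), Prdm1 (0.46 and 0.74) and Lgals1 (−0.54 and −0.66) had deviation values larger in size than that of Il10, and the rest lay between −0.26 and 0.42. The first of each pair of values includes the difference between the sorted populations.

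The genes whose pattern over the 8 libraries was most like Il10, of 8408 with a mean of at least 100, were Vdr, Hspa9, Gsn, Pkm and Wdr77, with r between 0.967 and 0.992. Vdr encodes the vitamin D receptor, and its normalized counts were 18.7, 106, 250 and 122 in CCR8- and 367, 311, 1833 and 360 in CCR8+ replicates 1 to 4. All 4 CCR8+ values were above all CCR8- values, with a log2 fold change of 2.55 (limma, adjusted p = 0.838). Those most like Areg were Rtfdc1, Rpl7l1, Ero1l, Emc1 and Pdzd11, with r between 0.95 and 0.984. These are descriptions over 8 libraries of 2 populations.

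The pathways around the 9 genes were followed by lists, in which 0 genes were called by limma. In the IL-10 signalling list of 13 genes the median log2 fold change was 0.13, against 0.04 over all tested genes, and 7 were above 0. Stat3, the factor that the IL-10 receptor activates, was at 5563 ± 1658 in CCR8+ and 3300 ± 357 in CCR8- cells (SD, n = 4 each). Its log2 fold change was 0.71 (SE 0.24, adjusted p = 0.838 with limma), and all CCR8+ libraries were above all CCR8- libraries. Etv3, a repressor induced by IL-10 in macrophages, was at 159 ± 16 and 347 ± 191, with all CCR8+ libraries below.

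Among the 15 transcription factors that act at Il10 in T cells, the 9 genes' 3 included, 10 lay above 0 and the median was 0.09. Batf, an AP-1 family factor, was at 10465 ± 3837 in CCR8+ and 6588 ± 733 in CCR8- cells without overlap (log2 fold change 0.61, limma adjusted p = 0.838). Nfil3 had a log2 fold change of 0.80 and Ets1, an ETS family factor, of −0.54, both at an adjusted p of 0.838 with limma.

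For amphiregulin, 7 genes of EGF receptor ligands, receptors and the proteases that release the ligands were tested, with a median of 0.98. That median is the value of Rhbdf1, which was at 0 in 4 of the 8 libraries (SE 2.22). Adam17, the protease that sheds amphiregulin, was at 533 ± 181 in CCR8+ and 358 ± 234 in CCR8- cells, and Hbegf at 148 ± 108 and 88.7 ± 92.0 (SD, n = 4 each). Both overlapped between groups. Egfr was at 4.35 ± 8.70 and 41.9 ± 83.7, with reads in 1 library of each population. The 11 genes of adenosine handling had a median of −0.17 with 4 above 0, and none had an unadjusted p under 0.05 or groups that did not overlap. The same held for the 8 tested galectin genes and galectin ligands, whose median was 0.01.

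In the AHR list 7 genes were tested with a median of −0.22. Ptges3, which encodes the p23 co-chaperone of the receptor complex, was at 2469 ± 294 in CCR8+ and 1744 ± 245 in CCR8- cells without overlap. Tiparp, a target gene of AHR, was at 685 ± 194 and 923 ± 243, with overlap.

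The co-inhibitory receptors known to be driven by c-MAF and BLIMP-1 formed a list with Maf and Prdm1 themselves. Of its 7 tested genes 3 had an unadjusted p under 0.05, against 5.09% of all tested genes, and the median was 0.96. The list was chosen with earlier results of these data known, so this share is a description and not a test. Maf and Prdm1 themselves were at −0.35 and −0.02. Ctla4 was at 25827 ± 12152 in CCR8+ and 9657 ± 2065 in CCR8- cells, and Pdcd1, which encodes PD-1, at 13953 ± 2866 and 7101 ± 2518 (SD, n = 4 each). Neither gene overlapped between groups, with log2 fold changes of 1.34 and 1.02 and an adjusted p of 0.829 with limma for both. Havcr2, which encodes TIM-3, had a log2 fold change of 0.96 and a limma adjusted p of 0.838. The remaining receptors were Lag3 at 1.90 (SE 1.64) and Tigit at −0.19 (SE 0.39), the latter named after its value was seen.

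Of 11 tested genes of other mediators linked to suppression the median was 0.45. Il13, a type 2 cytokine, was at 565 ± 225 in CCR8+ and 53.2 ± 18.5 in CCR8- cells without overlap (log2 fold change 3.38, limma adjusted p = 0.788). Itgae, which encodes the integrin CD103, was at 66.2 ± 78.7 and 630 ± 392, with all CCR8+ libraries below.

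**Figure D4:**
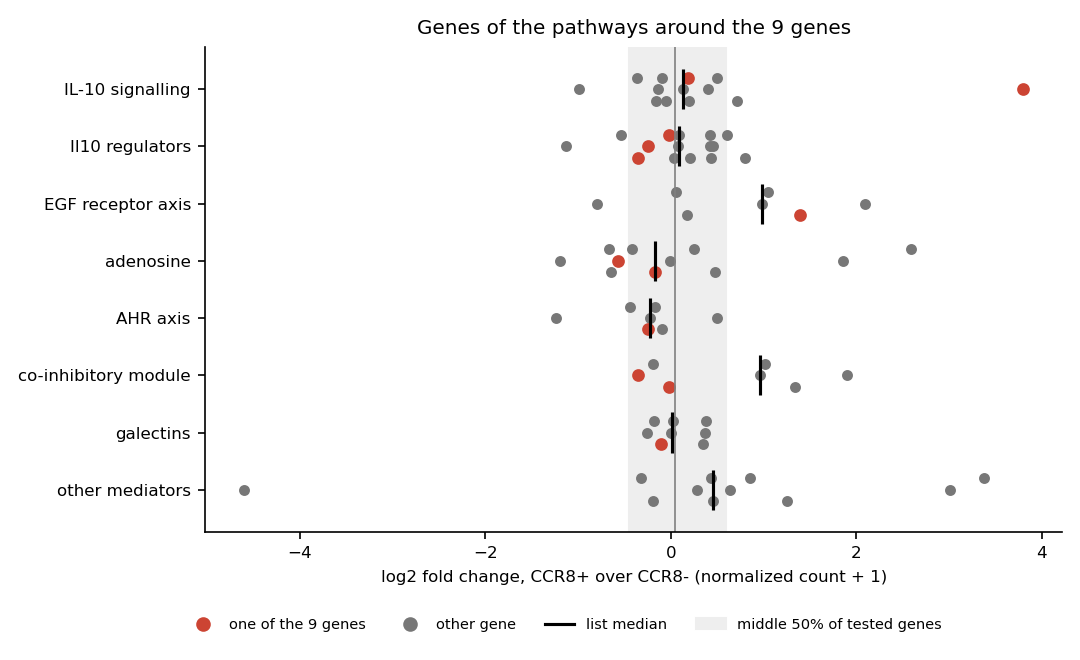
Log2 fold changes of CCR8+ over CCR8- cells (normalized count + 1) for the tested genes of 8 lists, with the 9 genes in red, other genes in grey, list medians as black bars, and the median (line) and middle 50% of all tested genes (−0.45 to 0.59) in the background. List medians run from −0.22 for the AHR list to 0.98 for the EGF receptor list, where the median gene is Rhbdf1 with an SE of 2.22, and Il10 lies at 3.80.

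Transcripts of other cells were measured beside these values. In bulk samples fewer cells of a type and less RNA per cell cannot be told apart. The 15 macrophage markers, Csf1r, Lyz2 and C1qa among them, summed to 430, 5894, 1845 and 96811 normalized counts in CCR8- and to 35943, 24006, 4172 and 29847 in CCR8+ replicates 1 to 4. Of these 15 genes 14 had a fitted log2 fold change above 0, with a median of 2.09, and 0 were called by limma. The library with the most Il10, CCR8+ replicate 3, had the lowest macrophage sum of the CCR8+ libraries. CCR8- replicate 4, with the highest sum of all, had 390.7 normalized counts of Il10. The other way, CCR8- replicate 1 had both the lowest macrophage sum of all (430) and the lowest Il10 (24.6). Without CCR8- replicate 4 and CCR8+ replicate 1, the libraries with the highest sum in each group, the log2 fold change was 4.03 for Il10 and 1.47 for Areg. The macrophage sums then still differed, at 430, 5894 and 1845 in CCR8- and 24006, 4172 and 29847 in CCR8+ libraries.

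The 6 melanoma markers summed to between 105 and 17279 in CCR8- and between 232 and 21777 in CCR8+ libraries. Sums of 7 dendritic cell and class II genes ran from 2819 to 37097 and from 2768 to 21848, and those of 4 stromal genes from 207 to 1189 and from 239 to 551. The CD8 genes summed to between 478 and 3805 over the 8 libraries and 3 NK cell genes to between 0 and 520. For 3 Treg cell genes, Ikzf2, Lrrc32 and Nrp1, the sums lay between 1613 and 2965. Foxp3 is not among these 3. Most of the sum was Nrp1, at 1880 ± 468 in CCR8+ and 2137 ± 460 in CCR8- cells (SD). The log2 fold changes were −2.48 for Ikzf2 (SE 1.58), 3.01 for Lrrc32 (SE 1.83) and −0.19 for Nrp1 (SE 0.25). Ikzf2 was at 0 in CCR8+ replicate 3 and Lrrc32 at 0 in CCR8- replicates 1 and 3, and the groups overlapped for both. The part of these cells in the values of the 9 genes was not tested.

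**Figure D5:**
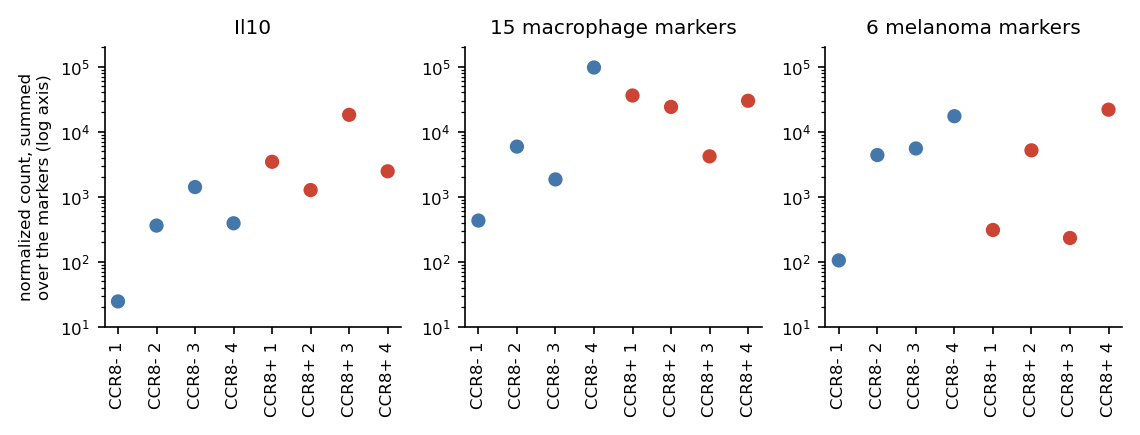
Normalized counts of Il10 and summed normalized counts of 15 macrophage and 6 melanoma markers in each library (log axes, 1 point per library, CCR8- in blue and CCR8+ in red). Il10 is highest in CCR8+ replicate 3 (18130), where the macrophage sum is 4172 and the melanoma sum 232. It is lowest in CCR8- replicate 1 (24.6), where these sums are 430 and 105.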

How the data were processed

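Bulk RNA-Seq of 4 CCR8+ and 4 CCR8- libraries was analysed, with groups and replicate numbers from the sample titles. The authors trimmed the reads, aligned them to NCBIM37 and normalized to library size. The submitters' processing notes name FastQC, cutadapt, HTSeq and DESeq2, whose versions are not given in the sources used here, and the builds NCBIM37 and mm9. Each deposited value is a signal, namely counts of reads over a library factor. Though called FPM, they totalled between 11469410 and 14394101 per library, and whole reads were recovered for 100% of values (tolerance 0.05 reads). In the table of 11233 genes, 20 had no reads anywhere and 1 name was duplicated. Unused columns of sample values numbered 0.

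Differences were tested on log2(normalized count + 1) by limma (3.58.1, trend option, R 4.3.3) for the 11032 genes whose mean reached 10, and p-values were adjusted over all of these by Benjamini-Hochberg. The study's test, DESeq2 (1.42.0), and edgeR (4.0.16) were run on the recovered reads as alternatives, since the values are not counts. Fold changes on this scale can understate those of low genes, and zeros in single libraries can also enlarge them. Lrrc32, at 0 in CCR8- replicates 1 and 3, had a log2 fold change of 3.01. Its means were 77.7 in CCR8+ and 41.0 in CCR8- cells. Single genes had exact two-sided permutation tests over 70 assignments. Exon lengths and gene positions came from GENCODE on GRCm38, another build than that of the files, and promoters from RefSeq. The scripts were tested on simulated data.

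The 9 genes and the gene lists were chosen with earlier results of these data known. The named genes are the 9, the sort and T cell checks, in each list up to 4 tested genes with the smallest unadjusted p, and the 5 genes most like Il10 and Areg. Some listed genes were not analysed or are not reported here. Other alternatives were pseudocounts of 0.1 and 10, quantile or TMM scaling or a total of 1000000 in each library, a minimum mean of 100 or none, robust variances, the replicate block and leaving out each library. Chosen after seeing the data were leaving out the 3 libraries with unusual zeros, those with the most macrophage transcripts and those with the lowest and the highest Il10, DESeq2 without its filter, and relations of Il10 over deviations from group means. The replicates were biological, isolated on 1 day, but the sources used here do not say whether each number is a separate animal, so p-values measure the spread between these samples. Floors reflect counting error alone, as reads had no molecular identifiers.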

Additional observations from a re-analysis of the deposited data

Results flagged for a closer look

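On the scale of normalized counts, in CCR8+ cells the highest library stood apart from the other 3 for both Il10 and Areg. The gap of CCR8+ replicate 3 to the next library, as a share of the group's range, was 0.871 for Il10 and 0.914 for Areg, past the 95% critical value of Dixon's test for 4 samples. Of 24 groups examined (the 9 genes, Ccr8, Cd4 and Cd3e in both populations) 2 were past this value, and chance gives about 1 in 20 groups. On the log2 scale used for the tests the shares were 0.624 and 0.818, and neither was past the critical value.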

How the results depend on the processing

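Il10 and Areg kept their direction under all 24 alternatives each, with log2 fold changes between 1.60 and 4.60 and between 0.84 and 1.70, and Maf (−0.61 to −0.04) and Ahr (−0.51 to −0.14) also stayed below 0. limma called 0 genes except with the replicate block, where it called 1. DESeq2 called 26, or 27 without its filter on low means, and of the 9 genes it called 1 (Areg) with the filter and 0 without it.

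With the replicate number as a block DESeq2 called 125 genes and 1 of the 9, Il10 (adjusted p = 3.71e-05, with Areg at 0.064), and limma 0 of the 9. Same-numbered libraries correlated at 0.0682, 0.138, 0.108 and 0.217 in their deviations from their group's mean. Differently numbered ones lay between −0.171 and 0.101. Each CCR8+ library correlated best with the CCR8- library of its own number. The CCR8- libraries did the same, except that replicate 1 correlated best with CCR8+ replicate 3 (0.0954). Not all 4 same-numbered values were over 0.1, and the main tests did not take the numbers to pair the libraries. Whether they do is not known. On pair differences r with Il10 was −0.52 for Maf, −0.36 for Prdm1 and −0.19 for Ahr, and Il10 minus Il10ra differed by 3.61 and Il10 minus Areg by 2.41 (exact permutation p = 0.125 for both, the smallest possible).

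With 1 library left out at a time, log2 fold changes ranged from −0.19 to 0.18 for Prdm1, −0.35 to 0.10 for Lgals1, −0.53 to 0.12 for Nt5e, −0.13 to 0.44 for Il10ra and −1.09 to 0.21 for Entpd1. The non-overlapping genes numbered 1 to 2, with Ahr added without CCR8- replicate 1 and Il10 without CCR8- replicate 3 or CCR8+ replicate 2. Groups separate more easily with fewer libraries, and no share over all genes is given for these reduced sets. The added genes are therefore not read as a result. The r with Il10 ranged from −0.79 to 0.14 for Maf, −0.18 to 0.51 for Prdm1 and −0.39 to 0.38 for Ahr. Il10 minus Areg ranged from 1.31 to 3.24, past 0.05 without CCR8- replicate 3 (exact permutation p = 0.0286), and Il10 minus Il10ra from 2.47 to 4.21, at an exact permutation p of 0.0571 without CCR8- replicate 1 or any of the CCR8+ libraries.

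Prdm1 was at 0.03 with DESeq2, with or without its filter, and with edgeR. Without the 3 libraries with unusual zeros Prdm1 was at 0.09, Il10ra at −0.34 and Lgals1 at 0.15, 2 genes did not overlap (Areg and Ahr) and Il10 minus Il10ra was 1.94. Without CCR8- replicate 1 and CCR8+ replicate 3 Il10ra was at −0.11, Entpd1 at 0.20 and Lgals1 at 0.14, 2 genes did not overlap (Areg and Ahr), r of Il10 with Ahr was −0.55 and Il10 minus Il10ra was 2.03. Without the libraries richest in macrophage transcripts Prdm1 was at 0.06, Il10ra at −0.07 and Il10 minus Il10ra at 4.10. The exact permutation test cannot go below p = 0.1 with these libraries left out. Here too the counts of genes that did not overlap have no share over all genes beside them. With quantile normalization r of Il10 with Ahr was −0.06. Over deviations from the group means r of Il10 with Ahr was 0.93 (exact permutation p = 0.00521). The causes were not tested. Depth limits mainly Il10 in CCR8- replicate 1, at 25 reads, and the small spread of Ahr within CCR8+ libraries, at 251 to 306 reads.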
